A study of Mus musculus with 4 samples.

Results

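The S100 genes described here encode small calcium-binding proteins, and 9 of them (S100a1, S100a4, S100a6, S100a8, S100a9, S100a10, S100a11, S100a13 and S100b) were picked by symbol from the 31053 genes of the expression matrices. They were read in 32217 of 40003 cell barcodes, those with 1000 to 40000 unique molecular identifiers (UMIs, one tag for each captured RNA molecule) and at most 10% mitochondrial UMIs. The study asked how the cell types of bone respond to the loss of mechanical load and used single-cell RNA sequencing of tibiae and femurs from wild-type mice. Mice of the HLU group (2 libraries) were hung by the tail for 28 days so that the hindlimbs bore no weight, and mice of the Ctrl group (2 libraries) were kept without suspension. The study's methods give C57BL/6J mice of either sex that were 8 weeks old before the 28 days of the experiment. The series' design text instead places the sequencing at postnatal day 28, so the age at sampling is not settled here. In both groups the marrow was rinsed out of the bones with PBS before enzymatic digestion, and the marrow-derived cells described below are those that stayed with the rinsed bone.

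S100 proteins are vertebrate calcium sensors that fold around a pair of EF-hand loops, usually as dimers, and bind other proteins when calcium rises. S100A8 and S100A9 pair into calprotectin, a very abundant cytosolic protein of neutrophils, which sequesters zinc and manganese from microbes and, once released, signals through TLR4 and RAGE. The other members work mostly inside the cell: S100A10 and S100A11 bind annexins at membranes, S100A4 binds non-muscle myosin, S100A6 binds Cacybp, S100A13 takes part in the unconventional release of FGF1, S100A1 is best known from striated muscle, and S100B from glia and cartilage.

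By the GENCODE annotation of release M21 (mm10), 8 of the 9 genes lie on chromosome 3 and S100b lies on chromosome 10. S100a1, S100a13, S100a4, S100a6, S100a8 and S100a9 follow each other within 184.688 kb, at chr3:90511034-90695721, and S100a11 and S100a10 lie farther along the same chromosome, at chr3:93520488-93526287 and chr3:93555080-93564643. The promoter windows below come from RefSeq on GRCm38.p6, which had a window of 250 bases before to 50 after the start for 8 of the 9 genes. S100a8 (chr3:90668821-90669070, plus strand, ending at the base before the annotated start) and S100a9 (chr3:90695716-90695971, minus strand, to base 6 of the transcript) are shown because their levels were nearly proportional across the cell classes. Capitals mark the searched motifs, each sought on both strands. The TATA box was sought as TATAAA and the C/EBP-type motif as TTGCNNAA. The PU.1-type motif was sought as GAGGAA, which reads TTCCTC when it lies on the opposite strand. The Sp1-type motif was sought as GGGCGG.
S100a8: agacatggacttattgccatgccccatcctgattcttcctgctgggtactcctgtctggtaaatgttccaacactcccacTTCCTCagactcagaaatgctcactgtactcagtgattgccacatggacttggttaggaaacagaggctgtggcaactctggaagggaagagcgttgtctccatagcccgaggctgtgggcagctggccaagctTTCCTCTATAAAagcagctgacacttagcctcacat
S100a9: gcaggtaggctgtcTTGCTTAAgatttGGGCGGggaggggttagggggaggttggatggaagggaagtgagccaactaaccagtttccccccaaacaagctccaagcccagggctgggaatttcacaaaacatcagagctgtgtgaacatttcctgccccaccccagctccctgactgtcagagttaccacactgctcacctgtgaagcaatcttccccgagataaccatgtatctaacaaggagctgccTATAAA

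The S100a8 window held TATAAA 30 bases before the annotated start, with the GAGGAA motif directly upstream of it and again 170 bases before the start. In the S100a9 window TATAAA sat at the annotated start itself, and TTGCTTAA and GGGCGG lay 236 and 223 bases before it. These letters are common: of 32851 promoter windows of the same length, 13.6% held TATAAA, 10.8% TTGCNNAA, 28.3% GAGGAA and 35.7% GGGCGG. S100a1 and S100a13 are shown as well because they are transcribed away from each other, S100a1 to the left from base 90514330 and S100a13 to the right from base 90514435 by RefSeq, and because their levels went together across cell classes. Capitals mark the 104 bases between the starts at chr3:90514306-90514459 (plus strand), none of which matched the 4 motifs.
S100a1 and S100a13: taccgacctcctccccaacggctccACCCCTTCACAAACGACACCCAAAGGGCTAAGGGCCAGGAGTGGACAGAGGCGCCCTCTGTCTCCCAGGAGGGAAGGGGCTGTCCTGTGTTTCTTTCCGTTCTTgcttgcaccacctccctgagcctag

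The 32217 barcodes formed 32 clusters, drawn without any S100 gene. Putative doublets took part in the clustering and were removed afterwards, which left 30019 cells. Of the classes named from their markers, 9 had at least 20 cells in every library. The libraries held between 47819046 and 99849070 UMIs, HLU replicate 2 being the deepest, and they shared 13 to 21 cell barcodes per pair. HLU replicate 2 also stood apart from the other 3 libraries in several S100 values within one class, which is said where it occurs. The make-up differed strongly by condition: the neutrophil classes (progenitor, immature and mature) held 31.7% and 40.7% of Ctrl cells and 67.2% and 64.1% of HLU cells, whereas the skeletal classes (chondrocyte-like, stromal and tendon or connective tissue) held 42.1% and 27.2% against 1.48% and 1.74%. The chondrocyte-like class of HLU therefore rested on 46 and 89 cells and the stromal class on 39 and 48. Levels below are CPM, in which the UMIs of a gene are divided by all UMIs summed over the cells of a class in a library and scaled in the usual way, always given in the order Ctrl replicate 1, Ctrl replicate 2, HLU replicate 1, HLU replicate 2.

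S100a8 and S100a9 were concentrated in the neutrophil classes, which held 90.6% to 97.6% of the S100a8 UMIs and 89.5% to 98.0% of the S100a9 UMIs of a library's cells. Immature neutrophil-like cells, which are filling their secondary granules, carried S100a8 at 111980, 121065, 119268 and 130906 CPM. In the same cells S100a9 stood at 144245, 148828, 139931 and 168880 CPM, so that the pair made up 25.6%, 27.0%, 25.9% and 29.98% of all UMIs. The Ctrl and HLU values of the immature class lay close together, and for both genes the highest was HLU replicate 2.

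Mature neutrophil-like cells carried less S100a8 in 3 of the 4 libraries, with 70326, 75234 and 83697 CPM, whereas HLU replicate 2 reached 130912 CPM. S100a9 had the same shape there at 77869, 86383, 89259 and 145311 CPM, and the pair took 14.8%, 16.2%, 17.3% and 27.6% of the class's UMIs. Because of that library the ranges of the immature and mature classes overlapped, and the mean of S100a8 in the immature class, 120805 ± 7796 CPM (SD, n = 4), was 1.34 times that of the mature class. Neutrophil progenitor-like cells, marked by the primary granule genes Mpo, Elane and Ctsg, had 43361, 47754, 47676 and 43988 CPM of S100a8, a range below that of both later classes. Each of the other 6 tested classes lay lower by at least 8.14-fold on the mean, and no neighbours in their order were apart from each other beyond their ranges.

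**Figure D1:**
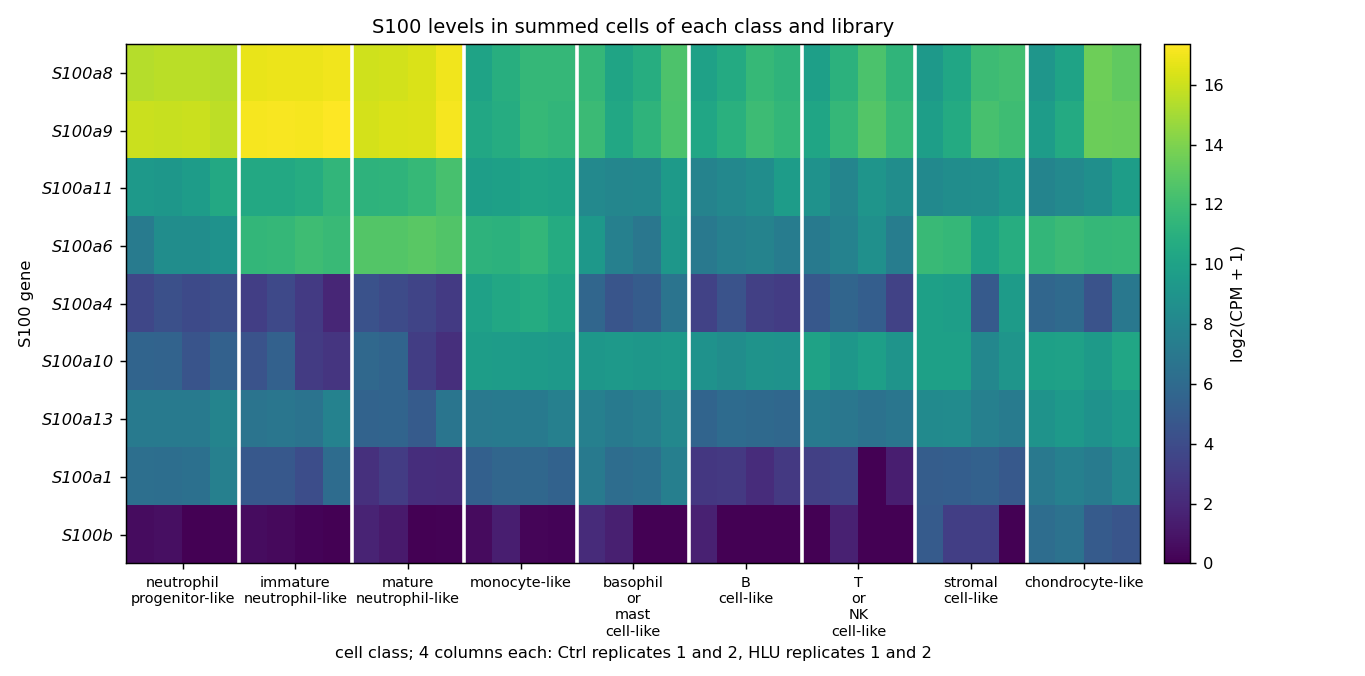
Heat map of the 9 S100 genes (rows) in 9 cell classes (columns, 4 libraries each), coloured by log2(CPM + 1) of the summed cells. S100a8 and S100a9 are brightest in the neutrophil classes, S100a10 is dark in those classes and bright in the others, and S100b rises above background in chondrocyte-like and stromal cells.

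Within the neutrophil clusters, ordered from progenitor to mature by the sums of their markers, the S100 genes rose at different points. S100a8 went from 22765 ± 2640.4 CPM (SD, n = 4 libraries) in the earliest cluster, led by the protease gene Ctsg, to 74848 ± 8656 in the next, led by Fcnb, and reached 139581 ± 11272 in the last immature cluster, led by Ifitm6. S100a6 was still at 175 ± 88.1 and 560.3 ± 339.7 CPM in these first clusters and rose later, through 874, 1821 and 3563 CPM on the mean to 7087 ± 584 CPM in the Ifitm6-led cluster. S100a11 followed a like course from 672 ± 291 to 3132 ± 1045 CPM over the same clusters. S100a1 went the opposite way, from 109.7 ± 42.9 CPM in the Ctsg-led cluster to 8.86 ± 4.96 in the Ifitm6-led cluster, and stayed between 3.56 and 5.41 CPM on the mean in the mature clusters.

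The mature neutrophil clusters were not alike. The cluster led by Ccrl2, a chemokine-binding receptor, together with Il1rn and Cxcl2, had 35092 to 103539 CPM of S100a8 where the Retnlg-led cluster had 105007 to 150363 and the Stfa2-led cluster 74894 to 141719. S100a6 was lower in the Ccrl2-led cluster as well, at 4256 ± 279 CPM against 8578 ± 817 in the Retnlg-led and 7823 ± 480 in the Stfa2-led cluster, with no overlap between the libraries. As the clusters were drawn from these cells, these differences are a description and were not tested.

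**Figure D2:**
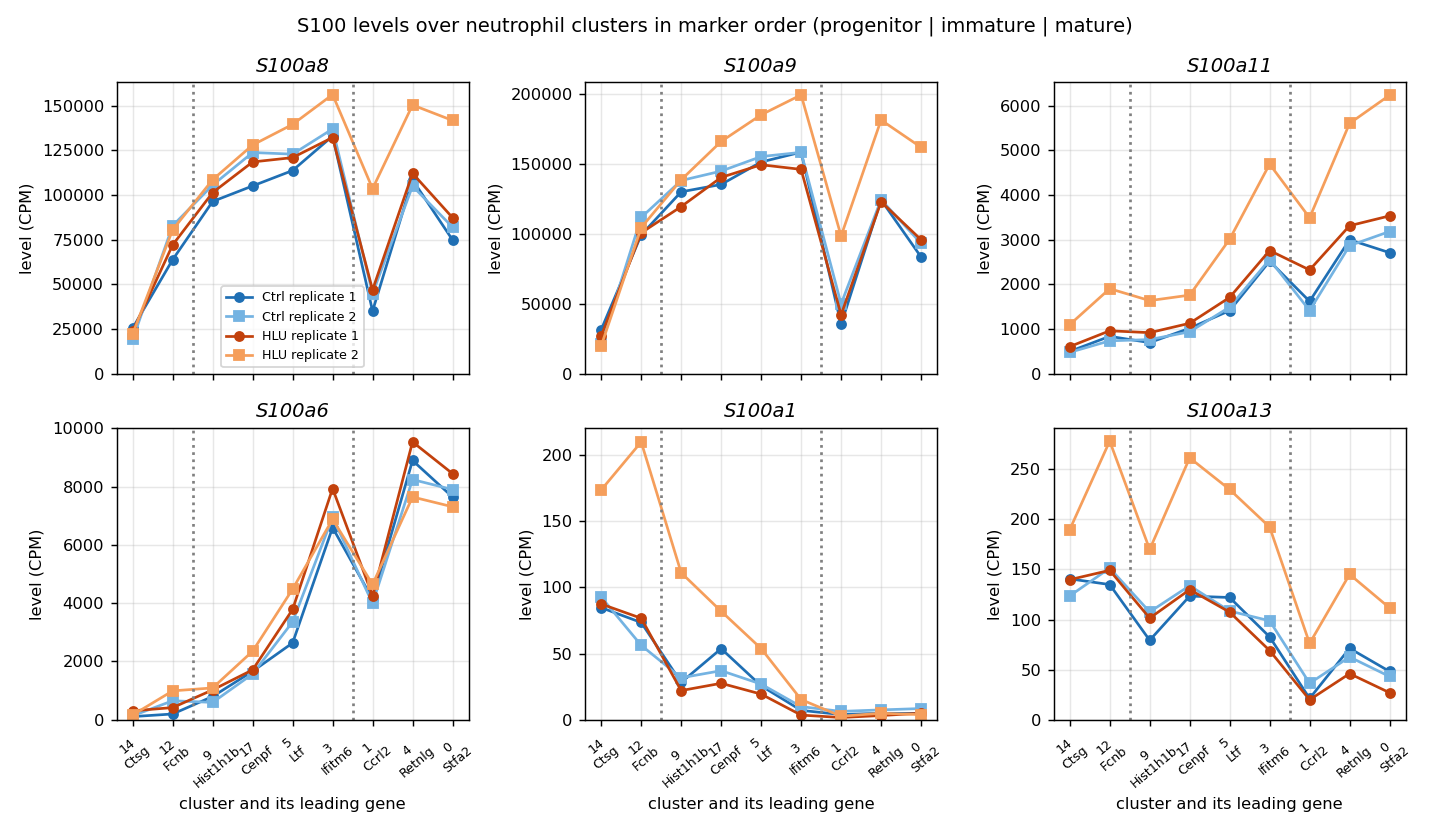
Levels in CPM (linear axes from 0) of 6 S100 genes over 9 neutrophil clusters ordered by their marker sums, each cluster named by number and leading gene, with a line for each library and dotted lines between the progenitor, immature and mature classes. S100a8 and S100a9 rise first, S100a6 and S100a11 later, S100a1 and S100a13 fall, and HLU replicate 2 lies above the other libraries for S100a11 and S100a13 in every cluster.

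S100a6, known as calcyclin from its induction in dividing fibroblasts, was highest in mature neutrophil-like cells at 6747, 6599, 7612 and 6484 CPM, apart from every other class. Immature neutrophil-like, chondrocyte-like, stromal and monocyte-like cells followed with means of 3371, 3202, 2345 and 2300 CPM, and their ranges overlapped. The lymphocyte, basophil or mast cell and neutrophil progenitor classes had 118 to 609 CPM, below all of these. Since skeletal and neutrophil cells both carried the gene, the neutrophil share of its UMIs was 23.8% and 31.4% in Ctrl and 79.4% and 81.0% in HLU.

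S100a11 shared the mature neutrophil peak, at 2411, 2461, 3149 and 5113 CPM, and HLU replicate 2 was the outlying library here too. Monocyte-like cells had 856, 951, 1154 and 1049 CPM, below every immature neutrophil value, and the lymphocyte, stromal, chondrocyte-like and basophil classes lay between 222 and 797 CPM. S100a4 was distributed differently. Among the tested classes it was highest in monocyte-like cells, at 973, 1332, 1652 and 1144 CPM, while the neutrophil classes had no more than 19.6 CPM. The gene was also strong in stromal cells at 945, 836 and 722 CPM, with the exception of HLU replicate 1 at 29.6 CPM over 39 cells. Tendon or connective tissue cells, too few in HLU to be tested, had 1066, 543, 40.9 and 690 CPM. This class was named over all libraries together. Within single libraries its markers put tendon first in Ctrl replicate 1, osteoblast-like in Ctrl replicate 2 and stromal cell-like in HLU replicate 1. The skeletal classes held 65.5% and 36.2% of the S100a4 UMIs in Ctrl and 0.272% and 2.89% in HLU.

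A small cluster of 126 cells that the markers left unnamed, led by Ccl22, Il4i1 and Fscn1, had still more S100a4, at 2494, 1869, 2885 and 1907 CPM, with 13 to 66 cells in a library. When each cell was thinned to 1000 UMIs, 49.3% to 60.8% of monocyte-like cells kept an S100a4 UMI, against 0.297% to 1.86% of immature neutrophil-like cells, whose median depths of 7018 to 9051 UMIs were near the 8614 to 12814 of the monocytes. Before thinning these shares were 83.7% to 93.7% and 2.82% to 6.55%. Within the monocyte-like class the Serpinb2-led cluster had 1051 to 2038 CPM of S100a4 and the Marco-led cluster 845 to 1277, the former higher in each library.

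S100a10, the annexin A2 partner that anchors plasminogen-binding complexes at the membrane, was nearly the reverse of calprotectin. Chondrocyte-like cells had 916, 979, 709 and 1223 CPM, monocyte-like cells 802, 767, 750 and 681 CPM, and T or NK cell-like cells 1008, 594, 876 and 518 CPM. B cell-like cells, with 357 to 477 CPM, stood below all of these but 11.3-fold above the nearest neutrophil class on the mean. The neutrophil classes had 4.17 to 57.5 CPM, and together they held 1.06% to 4.46% of the gene's UMIs although they made up 21.2% to 64.7% of all UMIs. The tendon or connective tissue class, too small in HLU to enter the tests, was highest of the named classes in Ctrl, at 1770 and 1657 CPM.

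S100a13 and S100a1, the divergent neighbours, were both highest in chondrocyte-like cells. S100a13 had 491, 675, 458 and 656 CPM there, apart from the stromal cells that came next at 317, 330, 190 and 151 CPM. S100a1 had 131, 187, 146 and 276 CPM in chondrocyte-like cells, which overlapped the basophil or mast cell class (139, 72.4, 85.3 and 182 CPM) and the neutrophil progenitors (79.5, 76.4, 82.2 and 187 CPM). In mature neutrophils, B cells and T or NK cells S100a1 was at 0 to 10.1 CPM. The basophil or mast cell class was also led by Pf4 and Itga2b, genes of megakaryocytes, besides Prss34 and Mcpt8.

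S100b was a gene of the skeletal cells. Chondrocyte-like cells had 72.6, 91.4, 31.3 and 23.3 CPM, and tendon or connective tissue cells 47.1, 46.8, 13.7 and 17.7 CPM, the last pair over 22 and 15 cells. Stromal cells had 30.2, 8.49, 8.45 and 0 CPM, and in every tested blood class the gene stayed at or below 3.48 CPM. After thinning, 2.25% to 9.08% of chondrocyte-like cells kept an S100b UMI and 0% to 0.234% of neutrophil-class and monocyte-like cells, so this level sat close to what one UMI per cell can show.

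Across the 44 sums of class and library with at least 20 cells, the Pearson correlation of log2(CPM + 1) was 0.997 between S100a8 and S100a9, 0.77 between S100a8 and S100a11, 0.71 between S100a1 and S100a13, 0.70 between S100a4 and S100a10, and -0.77 between S100a8 and S100a10. These sums share libraries, depth and cells of neighbouring type, so the values are descriptions. Over 8169 other genes, the closest in pattern to both S100a8 and S100a9 were Mrgpra2b, Lrg1 and Itgb2l (r = 0.95 to 0.97). For S100a4 they were Mcub, Sestd1 and Ahnak (0.82 to 0.89), for S100a6 Sgms2, Sec14l1 and Tlr4 (0.80 to 0.84), for S100a10 Slc25a4, Zfp326 and Crip1 (0.90 to 0.91), and for S100a11 Msrb1, Prdx5 and Mcemp1 (0.86). S100a13 lay nearest to Uxs1, Kdelr2 and Ikbip (0.79 to 0.81), S100a1 to Tceal8, Tmem97 and Acer3 (0.78 to 0.79), and S100b to Fibin, Larp6 and the Wnt inhibitor Wif1 (0.92 to 0.93).

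The question of calprotectin outside neutrophils was met by comparing lymphocytes and stroma with the neutrophils of the same library. S100a8 in B cell-like cells was 982, 1573, 3219 and 2518 CPM, which was 1.40%, 2.09%, 3.85% and 1.92% of the mature neutrophil level. In T or NK cell-like cells it was 905, 2331, 5675 and 2682 CPM (1.29% to 6.78%), in stromal cells 651, 1245, 3889 and 4466 CPM (0.926% to 4.65%) and in chondrocyte-like cells 544, 1058, 11745 and 9096 CPM (0.774% to 14.03%). In each of these 4 classes both HLU libraries were above both Ctrl libraries, and the share of all genes with such values was not computed.

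These low levels were spread over nearly all cells and yet weighted to a few. At full depth 89.3% to 100% of the cells of these 4 classes had at least 1 S100a8 UMI, and at 1000 UMIs a cell 24.4% to 76.1% did, against 99.6% to 100% of mature neutrophil-like cells. The median cell held 2 to 11 S100a8 UMIs, or 291 to 1677 CPM, while the top 5% of cells held 32.6% to 71.4% of the class's S100a8 UMIs. In the chondrocyte-like cells of HLU, for instance, the median cell had 1677 and 460 CPM where the summed class had 11745 and 9096. Barcodes under 1000 UMIs carried S100a8 at 21427, 32718, 68083 and 16473 CPM, the last over 267 barcodes.

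**Figure D3:**
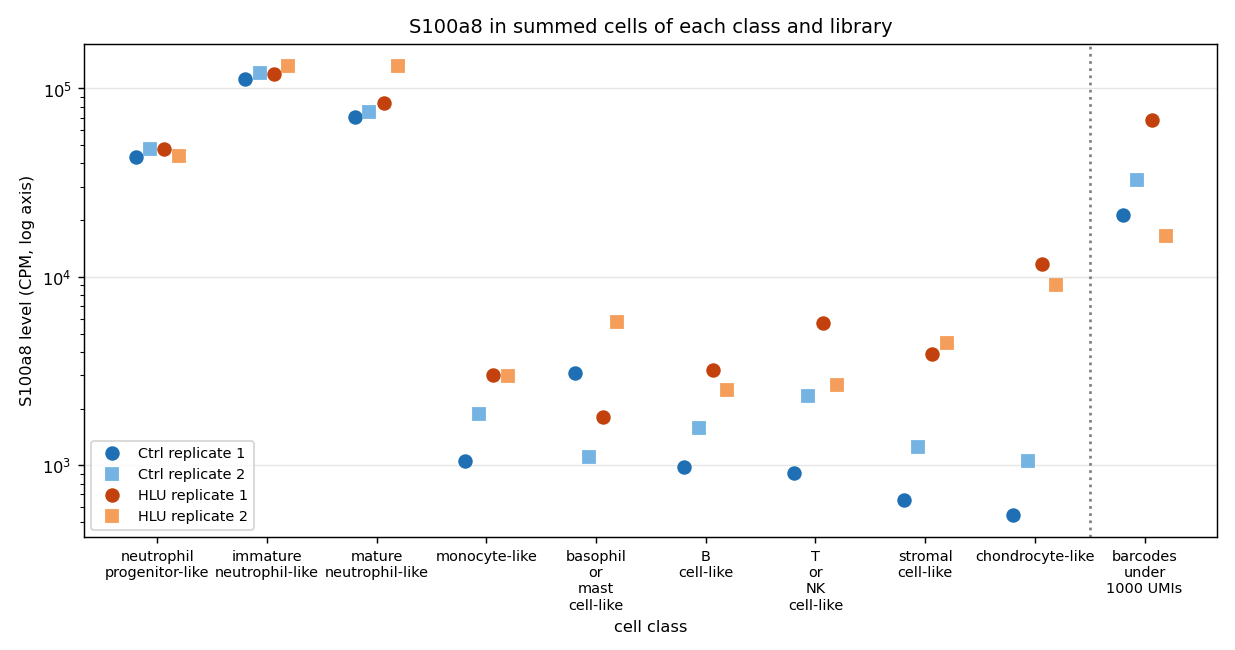
S100a8 level in CPM (log axis) in the summed cells of 9 classes and in barcodes under 1000 UMIs, 1 point for each of the 4 libraries. The neutrophil classes lie between 43361 and 130912 CPM and the other 6 classes between 544 and 11745. The HLU points are above the Ctrl points in the mature neutrophil, lymphocyte, monocyte, stromal and chondrocyte-like classes.

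The proportion of S100a8 to S100a9 lay between 0.681 and 1.11 in the 9 tested classes. UMIs of S100a8 per UMI of S100a9 were 0.689 to 0.855 in progenitor, 0.775 to 0.852 in immature and 0.871 to 0.938 in mature neutrophils, 0.787 to 1.10 in monocytes, 0.742 to 0.858 in B cells, 0.765 to 0.830 in T or NK cells, 0.772 to 1.11 in stromal cells and 0.681 to 1.04 in chondrocyte-like cells. Single clusters spread more widely than these class sums, as in the Serpinb2-led monocyte cluster of Ctrl replicate 2, with 2076 CPM of S100a8 and 1430 of S100a9. Among the unnamed clusters, the Clec4n-led cluster had more S100a8 (25696, 43494, 34222 and 70253 CPM) than S100a9 (20454, 23782, 18942 and 48131 CPM) in every library. The Ldhc-led cluster had less S100a8 (52125, 55355, 56954 and 68224 CPM) than S100a9 (101657, 96125, 86309 and 94625 CPM), the last library with 11 cells. Other neutrophil transcripts were present too: of the 10 fixed granule and cytosol genes (Ngp, Camp, Ltf, Lcn2, Retnlg, Wfdc21, Lyz2, Mmp8, Ifitm6, Chil3) all 10 had UMIs in each of these classes and libraries. Their median level, as a share of that in mature neutrophils, was 3.35% to 8.70% in B cells, 3.76% to 11.1% in T or NK cells, 4.01% to 10.04% in stromal cells and 4.99% to 26.8% in chondrocyte-like cells. Single genes lay far from these medians. Lcn2 in Ctrl chondrocyte-like cells was 105% and 108% of the mature neutrophil level, in HLU replicate 1 the same class had Chil3 at 149%, Ltf at 146% and Camp at 114%, and stromal cells of HLU replicate 2 had Chil3 at 158%. Immature neutrophils lay higher still on this scale. They had Lcn2 at 177% and 168% in Ctrl, and Chil3 at 2434%, Ltf at 2329% and Camp at 2500% in HLU replicate 1. Chil3 in HLU replicate 2 was at 2020% there. The part of free RNA in the S100a8 and S100a9 UMIs of lymphocytes and stroma was not tested. Keeping the putative doublets raised S100a8 from 2.31% to 9.40% of the mature neutrophil level in B cells and from 3.30% to 8.26% in T or NK cells, on the mean of the 4 libraries.

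Between conditions, the sum over all barcodes of a library asks how much of each S100 transcript the whole cell suspension held. Here all barcodes means those within the limits on UMIs and mitochondrial UMIs, with the putative doublets included. S100a8 was 20551, 29680, 65440 and 68603 CPM, S100a9 26107, 36486, 75598 and 83176 CPM, and S100a11 567, 754, 1532 and 2187 CPM. All 3 rose in HLU by edgeR's quasi-likelihood test with Benjamini-Hochberg adjustment over all genes, with log2 fold changes of 1.49 ± 0.37 (SE; adjusted p = 0.0409), 1.42 ± 0.37 (0.0464) and 1.58 ± 0.37 (0.0359). S100a10 fell, from 725 and 606 to 186 and 232 CPM (log2 fold change -1.59 ± 0.32, adjusted p = 0.0244), and S100b fell from 35.7 and 32.4 to 0.662 and 0.491 CPM (-5.83 ± 0.31, adjusted p = 0.00326).

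The groups did not overlap in any of these 5 genes, which are listed because they were called. The share of all genes without overlap was not computed. In such sums fewer cells of a type and less RNA per cell cannot be told apart, and the 5 of 9 members called stand beside 23.2% of all 15385 genes called in the same comparison. S100a6 (3046, 3318, 3403 and 2666 CPM), S100a4 (292, 279, 264 and 306 CPM) and S100a1 (70.4, 86.4, 30.03 and 74.1 CPM) overlapped between the groups, and S100a13 (292, 334, 102 and 187 CPM) was lower in both HLU libraries without passing (adjusted p = 0.135). Leaving out Ctrl replicate 1 or Ctrl replicate 2 left 1 member called, S100b, and leaving out HLU replicate 2 left 7.

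**Figure D4:**
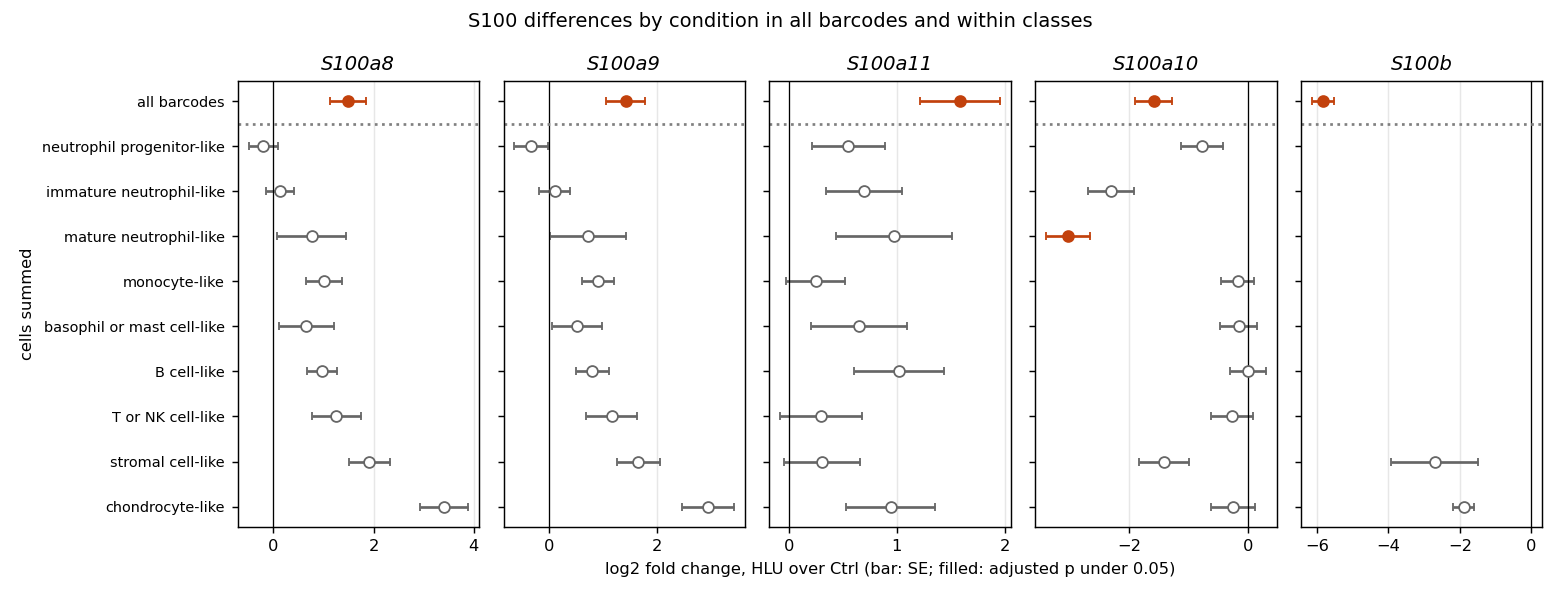
Log2 fold change of HLU over Ctrl with its SE for 5 S100 genes, in the sum of all barcodes (top row) and within each of 9 cell classes, filled where the adjusted p was under 0.05. All 5 genes are filled in the top row, and within classes the sole filled point is S100a10 in mature neutrophil-like cells, at -3.03.

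Within classes the picture was smaller. Of 81 pairs of member and class 71 passed the filter on low counts, and 1 of these was called by edgeR, while 18 had an unadjusted p under 0.05 and DESeq2 called 9. Without HLU replicate 1 the number called was 33 and without HLU replicate 2 it was 14, while the genes called over all classes went from 541 to 17849 and 2572. The shares of all genes called were 0.663% in B cells, 0.346% in T or NK cells, 0.59% in basophil or mast cells, 0% in chondrocyte-like cells, 1.17% in immature and 2.79% in mature neutrophils, 0.019% in monocytes, 0.143% in neutrophil progenitors and 0.433% in stromal cells. Of the 9 DESeq2 calls 4 were in stromal cells, 3 in chondrocyte-like cells, 1 in immature and 1 in mature neutrophils. In these classes DESeq2 called 478 of 10396, 454 of 12131, 225 of 10259 and 357 of 8899 genes. An unadjusted p under 0.05 in edgeR was reached by 4.18% to 18.7% of all genes, depending on the class. The highest shares, 17.6% and 18.7%, were in chondrocyte-like and stromal cells, which held 3 and 5 of the 18 pairs. With 2 libraries a group an exact two-sided permutation test of a single gene could not go below p = 0.333, so a call rests on the spread shared across genes.

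The single call was S100a10 in mature neutrophil-like cells, at 57.5 and 46.6 CPM in Ctrl and 7.87 and 4.17 CPM in HLU (log2 fold change -3.03 ± 0.37, adjusted p = 0.0183). Both groups were apart, and immature neutrophil-like cells had a like difference that did not pass, from 21.3 and 40.6 to 7.08 and 5.36 CPM (-2.31 ± 0.39, adjusted p = 0.0620). The call was lost without Ctrl replicate 1 (adjusted p = 0.105) and with at least 10 counts required in every library (0.0597). Skeletal transcripts moved the same way in these neutrophils: 33 markers of stromal, osteoblast, chondrocyte and tendon cells summed to 2106 and 1809 CPM in Ctrl and to 97.6 and 22.2 CPM in HLU. Of these 33 markers 23 passed the filter and 18 were called lower, with Dcn at 1165, 915, 5.01 and 2.81 CPM.

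In Ctrl 72.4% and 67.9% of the S100a10 UMIs lay in the skeletal classes, which held 50.7% and 41.3% of all UMIs. The gene was not confined to them. Its level in Ctrl was 77.5% and 76.1% of the skeletal level in monocyte-like cells. In T or NK cell-like cells of Ctrl it was 97.4% and 59.0%. As a share of the level in skeletal cells of the same library, S100a10 in mature neutrophils was 5.55%, 4.63%, 1.52% and 0.443%, where the median skeletal marker was 4.05%, 3.86%, 0.101% and 0.0644%. These medians covered different sets, the 31, 30, 20 and 18 markers with enough UMIs in the skeletal cells of a library. Those cells numbered 107 and 152 in HLU. Of all 33 markers, 4 and 1 were at 0 in mature neutrophils of Ctrl (Adipoq in both) and 11 and 9 in HLU, Adipoq, Tnmd and Sp7 among them. The part of these transcripts in the S100a10 difference was not tested.

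**Figure D5:**
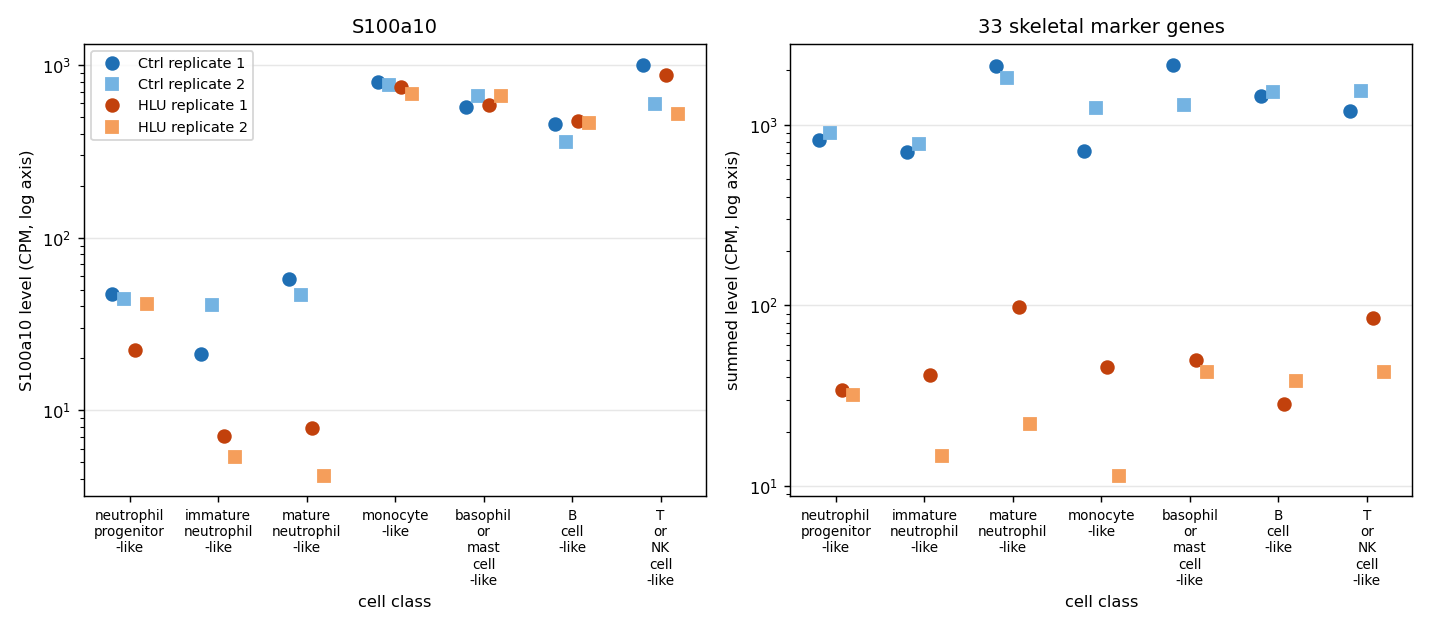
S100a10 level (left) and the summed level of 33 skeletal marker genes (right) in CPM on log axes, in 7 blood cell classes and 4 libraries. S100a10 is lower in HLU in progenitor, immature and mature neutrophils and in monocytes. It overlaps between conditions in lymphocytes and in basophil or mast cells, whereas the skeletal markers are lower in HLU in all 7 classes.

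In the other blood classes S100a10 did not pass. Its log2 fold change was -0.78 ± 0.35 in neutrophil progenitors, -0.16 ± 0.32 in basophil or mast cells and -0.17 ± 0.28 in monocyte-like cells. After TMM scaling both HLU values were under both Ctrl values in each of these classes. The log2 fold change was -0.01 ± 0.30 in B cells and -0.27 ± 0.36 in T or NK cells, where the groups overlapped. Tested directly, the HLU difference of monocyte-like cells minus that of mature neutrophil-like cells was 3.01 ± 0.33 on the log2 scale for S100a10 (adjusted p = 0.0512). None of the 8 members tested passed in this comparison, and 0.0542% of all genes were called, while DESeq2 was not run on it. An unadjusted p under 0.05 was reached by 2 members (S100a4 and S100a10) and by 7.89% of all genes. Without HLU replicate 1 the test called 6 members among 2304 genes, and without HLU replicate 2 it called 4 among 225, against 6 genes with all libraries.

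S100a8 and S100a9 within the neutrophil classes did not pass. In immature neutrophils the log2 fold changes were 0.13 ± 0.27 and 0.11 ± 0.29, in progenitors -0.21 ± 0.29 and -0.33 ± 0.31, and in mature neutrophils, with HLU replicate 2 far above the rest, 0.77 ± 0.69 and 0.73 ± 0.70. Outside neutrophils the log2 fold change of S100a8 was 0.66 ± 0.54 in basophil or mast cells, 0.97 ± 0.30 in B cells, 1.91 ± 0.41 in stromal and 3.40 ± 0.48 in chondrocyte-like cells. It was 1.01 ± 0.36 in monocyte-like and 1.26 ± 0.48 in T or NK cell-like cells. The adjusted p of S100a8 in these classes, in the order given, was 0.807, 0.681, 0.103, 0.0898, 0.828 and 0.858. None was called by edgeR, and the differences between the classes were not tested. The 10 neutrophil granule and cytosol genes moved with them, with a median log2 fold change of 1.04 in B cells, 1.15 in T or NK cells, 1.97 in stromal and 2.79 in chondrocyte-like cells beside medians of all genes between -0.04 and 0.03, and none of the 10 was called there. The median of these 10 genes was 0.57 in basophil or mast cells, 0.66 in monocyte-like cells and 0.86 in mature neutrophils. In immature neutrophils and progenitors it was 0.35 and 0.17. Not all of the 10 are particular to neutrophils, as Lyz2 in monocyte-like cells exceeded the mature neutrophil level in every library. The part of these 10 genes in the S100a8 difference was not tested.

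After TMM scaling S100a11 was higher in both HLU libraries than in both Ctrl libraries in 6 of the 9 classes, with log2 fold changes in those 6 from 0.25 in monocytes to 1.02 in B cells, and passed in none. How many of all genes were apart in this way was not computed. In 5 of the 6 HLU replicate 2 alone exceeded the others by a wide step, as in neutrophil progenitors at 657, 595, 783 and 1400 CPM. S100a13 in immature neutrophils (100, 110, 98.2 and 207 CPM) and S100a1 in the progenitors had the same single high library.

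In the skeletal classes the tests rested on few HLU cells. S100b in chondrocyte-like cells had a log2 fold change of -1.90 ± 0.29 (adjusted p = 0.0934). In its Col10a1-led cluster the levels were 66.9, 102, 20.5 and 34.3 CPM, and in its Col9a1-led cluster 92.0, 70.9, 51.8 and 7.20 CPM, lower in both HLU libraries in each. In stromal cells S100a6 (3503, 3061, 1043 and 1771 CPM), S100a10 (925, 916, 266 and 528 CPM) and S100a13 were lower in HLU with log2 fold changes of -1.43 ± 0.37, -1.41 ± 0.42 and -1.15 ± 0.27, and adjusted p of 0.132, 0.161 and 0.114. Marker levels in the stromal class varied too, with Dcn at 14991, 13488, 1060 and 1796 CPM and Col1a1 at 1873, 1600, 5450 and 44.5 CPM. In chondrocyte-like cells Dcn was 28302, 29316, 7991 and 9453 CPM. Whether these values reflect the make-up of the classes or the level per cell was not tested, nor was their part in the S100 values.

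The genes around the S100 proteins were read from fixed lists, whose counts in the whole suspension stand beside the 23.2% of all genes called there. Of 9 other S100 genes 7 could be tested in the whole suspension and 2 fell, S100a16 (81.4, 73.96, 5.06 and 2.43 CPM after TMM scaling, log2 fold change -4.38 ± 0.45, adjusted p = 0.00484) and S100a3 (-2.71 ± 0.46, adjusted p = 0.0170). Within immature neutrophils S100a16 was also called lower, from 2.36 and 3.21 to 0.0669 and 0.143 CPM after TMM scaling (edgeR adjusted p = 0.0396). Within mature neutrophils it went from 5.42 and 3.55 to 0.378 and 0.503 CPM on the same scale (edgeR adjusted p = 0.0487). These HLU values rest on a few UMIs. Before TMM scaling 3 UMIs came to 0.215 and 0.132 CPM in HLU immature neutrophils and to 0.430 and 0.241 CPM in mature ones. Of the skeletal markers 15 of 21 tested in immature and 18 of 23 in mature neutrophils were called lower in the same cells, and their part in the S100a16 difference was not tested. S100a2, S100a5, S100a7a, S100a14 and S100g had 416 UMIs or fewer in a library, and S100z had none.

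All 9 S100 receptors passed the filter in the whole suspension, where Cd33, an inhibitory receptor of myeloid cells that binds S100A9, rose (49.1, 58.2, 190.0 and 168 CPM after TMM scaling, log2 fold change 1.74 ± 0.27) and Bsg, a receptor for S100A9 on many cells, fell (1101, 1494, 390.2 and 159.7 CPM, -2.24 ± 0.51). The other 7 receptors, Tlr4, Ager, Ly96, Cd14, Cd36, Cd68 and Cd69, did not pass, and no receptor was called in any class. Of 13 binding partners 11 were tested: Myh9, the myosin bound by S100A4, rose (1.45 ± 0.35), and Fgf1, released with S100A13, and Ahnak, which joins S100A10 and annexin A2, fell (-4.61 ± 0.49 and -1.63 ± 0.37).

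Ahnak was the one partner called within classes, lower in immature and in mature neutrophils. After TMM scaling it had 8.61, 9.501, 1.54 and 1.58 CPM in immature neutrophils (log2 fold change -2.53 ± 0.37). In mature neutrophils it had 19.4, 20.3, 5.04 and 4.32 CPM on the same scale (-2.08 ± 0.36). S100a10 was called in the mature class alone. Ahnak was among the genes nearest to S100a4 in pattern. The annexins Anxa1, Anxa2, Anxa5, Anxa6 and Anxa11 did not pass in the whole suspension or in any class. Of the 10 neutrophil transcripts 5 rose in the whole suspension (Chil3, Ifitm6, Lyz2, Mmp8 and Wfdc21), the median of the list being 1.45 against 0.04 over all genes. For the receptors and partners these medians were 0.44 and 0.22.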

How the data were processed

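The deposited files hold whole-number counts of UMIs per gene and barcode, which the authors made with Cell Ranger 6.0.0 from Single Cell 3′ V3.1 libraries aligned to mm10, and the submitters' notes also name Seurat 4.1.0. All 4 libraries were grouped by their labels, and 0 columns were left unmapped. Barcodes with 1000 to 40000 UMIs and at most 10% mitochondrial UMIs were kept. Putative doublets were found with Scrublet in scanpy 1.11.5 at an expected rate of 0.8% per 1000 cells. They took part in the clustering and were removed before the clusters were named and summed. The sums over all barcodes used the same limits but kept the putative doublets. Cells were integrated and clustered with Seurat 5.3.0 on 2000 variable genes without S100 genes, 50 principal components and resolution 1, which gave 32 clusters, of which 8 (4244 cells) stayed unnamed. A cluster was named from fixed markers when at least 3 were raised, by thresholds set after the clusters were seen. A skeletal cluster kept its name where another skeletal class ranked first in a single library. Clusters and names were rebuilt here and may differ from the study's.

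Counts were summed per library and class (at least 20 cells in every library) and tested with edgeR 4.0.16 (quasi-likelihood, TMM factors, low-count filter, Benjamini-Hochberg over all genes of a comparison, threshold 0.05) in R 4.3.3. DESeq2 1.42.0 was an alternative, as were library totals without TMM, totals without S100a8 and S100a9, a limit of 0.2% haemoglobin UMIs, other filters, the replicate block, kept doublets, resolutions 0.5 and 2, and leaving out each library. The study's methods give 2 mice a group for the sequencing, and the labels do not say which animals made each library. The p-values measure the spread between these libraries. The named genes were the 9 members, the called genes of the fixed lists and the 3 genes nearest each member in pattern. The members and lists were chosen with earlier results of these data known. Shares of cells were also computed after thinning every cell to 1000 UMIs, which left none out, and intervals or floors would cover counting error only. Promoter sequences came from RefSeq (8 of 9 members matched) and positions from GENCODE release M21 (9 matched). Scripts were tested on simulated data.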

Additional observations from a re-analysis of the deposited data

Results flagged for a closer look

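After TMM scaling, for 4 members both HLU libraries lay above both Ctrl libraries in some class and below both in another. The classes compared below were picked as the extremes, and none of these differences was tested. The share of all genes with such values was not computed. The log2 fold change of S100a6 in immature neutrophil-like cells minus that in stromal cells was 1.78. S100a8 and S100a9 in chondrocyte-like cells minus neutrophil progenitor-like cells differed by 3.61 and 3.28, and S100a13 in monocyte-like minus stromal cells by 1.46. Before TMM scaling the S100a8 and S100a9 values of the progenitors overlapped between the groups. Their log2 fold changes there were -0.21 ± 0.29 and -0.33 ± 0.31.

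Cells of the unnamed clusters entered no comparison within classes, though the sum over all barcodes included them. For 3 members both of their HLU values were above both Ctrl values, and the share of all genes with such values was not computed. These cells lay in different clusters by group. The Npy-led cluster held 287 and 207 Ctrl cells against 1 and 10 HLU cells, and the Creld2-led cluster 265 and 122 against 2 and 0. The part of this make-up in the levels was not tested. S100a8 there was 7040, 11757, 35257 and 22809 CPM in Ctrl replicates 1 and 2 and HLU replicates 1 and 2, so that the lowest HLU value was 1.94 times the highest Ctrl value. For S100a9 this ratio was 1.37, and for S100a11 (354, 484, 989 and 1229 CPM) it was 2.04. In barcodes under 1000 UMIs the ratio for S100a11 was 1.06.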

How the results depend on the processing

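The count of members called within classes was 1 and became 9 with DESeq2, 15 with no filter on low counts, 2 with at least 10 counts in every library, 4 with doublets kept, 8 at resolution 0.5 and 2 at resolution 2, and 1 to 33 when each library was left out. Genes called over the classes numbered 541, and 1862, 4565, 188, 831 and 2099 under the first 5 of these settings, and 362 to 17849 without one library. In the sum over all barcodes members called ranged from 1 to 7 and genes from 848 to 7726 without one library, against 5 and 3568, and 2375 genes were called with at least 10 counts. For the difference between monocyte-like and mature neutrophil-like cells, library totals without TMM factors gave 1 member and 26 genes against 0 and 6, and leaving out a library gave 0 to 6 members and 0 to 2304 genes. S100a6 in mature neutrophils was 7865 CPM at resolution 2, and S100a8 in immature neutrophils 108703 CPM at resolution 0.5. With doublets kept, S100a8 was 9.40% of the mature neutrophil level in B cells and 8.26% in T or NK cells, and S100a9 10.2% and 8.64%. The cause was not tested.

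With the replicate block 3 members and 1203 genes were called within classes. The replicate numbers are only names here: same-numbered libraries correlated at -0.07 to 0.13 over the classes, with 2 pairs. The rise of S100a9 in the sum over all barcodes did not pass without TMM factors (edgeR adjusted p = 0.0558) or with at least 10 counts (0.0542). The sum over all barcodes gave 5 members and 3428 genes with the block. The 39 to 89 HLU cells of the stromal and chondrocyte-like classes limit their tests.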
